A study of Schizosaccharomyces pombe with 32 samples.

Results

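Untreated fission yeast was followed through its first 120 min on the clock of a peroxide experiment, in 4 arrays taken at 60 and 120 min and set against 2 arrays taken at 0 min. These 6 arrays were chosen by their sample titles alone, out of 32 arrays in the series. They came from 2 independent batch cultures of Schizosaccharomyces pombe strain JB50, grown with shaking in the rich medium YES, each sampled once at 60, 120 and 0 min. JB50 is homothallic (h90), so that a clone of it switches mating type and its cells can mate with each other. No hydrogen peroxide was added to these cultures, and the submitters describe them as exponentially growing. Another 22 arrays came from 2 cultures of the same strain that received 0.5 mM hydrogen peroxide, and 4 more were taken from the untreated cultures at 180 and 240 min. The labels give no cell density for the untreated cultures at any time.

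A batch culture changes its own medium as it grows, taking up sugar, nitrogen sources and metals. In fission yeast, glucose represses fbp1 (fructose-1,6-bisphosphatase, of gluconeogenesis) and, through the cyclic AMP pathway and its G alpha subunit gpa2, also ste11, the gene of the HMG-box factor that switches on mating and meiosis. Homothallic cells that exhaust nitrogen or glucose secrete pheromones, mate and enter meiosis, with the forkhead factor Mei4 driving the middle meiotic genes. Iron uptake by ferroxidase, permease and siderophore transporters is repressed by Fep1 when iron is plentiful.

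Each array gave a deposited signal for 4972 probe sets on a linear scale of unstated calibration, and a platform annotation gave 2903 of them 1 gene symbol. The medians of the 6 arrays lay between 1.71 and 2.0, and their log2 signals correlated across probe sets with r from 0.893 to 0.987, where genes are not independent replicates. The same culture was sampled each time, and the difference between the cultures persisted: deviations of culture 1 from culture 2 at 0, 60 and 120 min correlated with r from 0.512 to 0.869 over the 3 pairs of times. A change below is a log2 difference from 0 min. It was tested in limma with 1 mean per time over the 10 untreated arrays (no block), and again with culture as a block. Both fits give the same change and differ in its standard error (SE), and a call means a Benjamini-Hochberg adjusted p under 0.05 over all 4972 probe sets. Signals are listed as culture 1 and then culture 2. With 2 cultures, the number of arrays limits the precision of every value, and since the floor of the signal is unknown, folds of dim probe sets cannot be bounded. In bulk RNA, more cells in a state and more RNA per cell cannot be told apart.

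Genes called in both fits over both later times included, among those that rose, the meiotic genes mde6, mug133 and mug27, the pheromone pathway gene gpa1, the mannosyltransferase genes imt1 and omh1 and the galactose pathway gene gal10. Those that fell included str1, of siderophore-iron transport, pgt1, of glutathione transport, the nucleoporin gene nup85 and gpa2. Over both later times the fit without the block called 37 probe sets (30 higher, 7 lower, 0.744% of those tested), and the fit with the block called 288 (219 higher, 4.4%, and 69 lower, 1.39%, in all 5.79%). At 60 min alone the counts were 1 without the block (0.0201%, and 176 at an unadjusted p under 0.05) and 75 with it (67 higher, 8 lower, 1.51%). At 120 min they were 66 without the block (50 higher, 16 lower, 1.33%) and 503 with it (340 higher, 6.84%, and 163 lower, 3.28%, in all 10.1%). Between the arrays of 120 min and those of 60 min, limma called 0 without the block (163 at an unadjusted p under 0.05) and 25 with it (20 higher, 5 lower, 0.503%). The 176 and 163 at an unadjusted p under 0.05 are each a smaller share of the 4972 tested than 0.05.

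More calls went up than down, in both fits and at both times. Over all probe sets, called or not, the balance was the reverse: 329 had all 4 later arrays above both arrays of 0 min (6.62%) and 718 had all 4 below (14.4%). The count without the block rests on single arrays: it fell to 0 without either array of 0 min and to 2 without the 60 min array of culture 1, and it was 10 without untreated culture 2 and 0 without culture 1 in a fit of all 32 arrays. Quantile normalization turned the split of the 37 calls, 81.1% higher, into 91.7% higher of 36. Single cultures moved unequally. At 60 min, 160 probe sets in culture 1 and 89 in culture 2 stood at least 2-fold from their own 0 min array, and at 120 min 666 and 275 did. Across probe sets the changes of culture 1 and culture 2, which share no array, correlated with r = 0.453 at 60 min and 0.576 at 120 min.

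**Figure D1:**
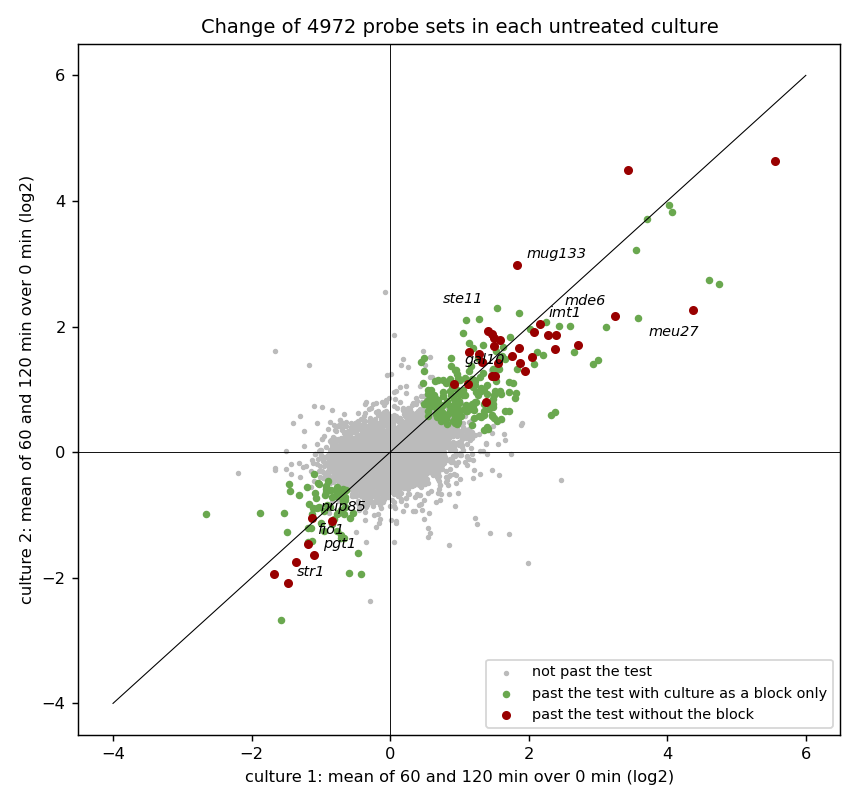
Change of each of 4972 probe sets in untreated culture 1 (x axis) and culture 2 (y axis), as the mean log2 signal at 60 and 120 min less that at 0 min of the same culture, with the diagonal drawn. Dark red points are the 37 called without the block and green points those called only with culture as a block. The named rises lie right of and above 0 and the named falls left of and below it, and the higher ones reach farther from 0 than the lower ones.

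Among genes with 1 symbol, the largest rise called without the block was that of mde6, a muskelin-like gene known as a target of Mei4. Its signal was 0.593 and 0.690 at 0 min, 4.21 and 1.79 at 60 min, and 7.46 and 5.34 at 120 min. All 4 later arrays lay above both arrays of 0 min, and culture 1 was ahead at both later times. The mean change was 2.70 (SE 0.33, adjusted p = 0.0164 without the block and 0.000165 with it), with 2.10 at 60 min and 3.30 at 120 min, where it makes a 9.87-fold rise. The call with the block held without each of the 6 arrays in turn. Also among the large rises were mug133 and mug27, 2 genes named for meiotic upregulation, of which mug27 encodes a meiotic protein kinase. mug133 had signals of 0.150 and 0.0858 at 0 min, 0.385 and 0.321 at 60 min, and 0.736 and 1.42 at 120 min, a mean change of 2.40 (adjusted p = 0.0259 without the block). mug27 changed by 2.01 (adjusted p = 0.0319) at signals no higher than 0.229, far below the array medians.

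At 120 min, 3 of the meu genes (meiotic expression upregulated) were called in both fits. meu13, the gene of a Hop2-like factor of homologous pairing, had signals of 0.240 and 0.168 at 0 min, 0.961 and 0.399 at 60 min, and 2.20 and 1.14 at 120 min. It changed by 1.62 at 60 min and by 2.98 at 120 min (at 120 min, adjusted p = 0.0281 without the block and 6.75e-05 with it). meu17, the gene of a glucan alpha-1,4-glucosidase used in spore maturation, changed by 2.99 at 120 min (adjusted p = 0.0194 without the block). Both cultures took part in these rises, and culture 1 had the higher signal at every time for both genes. meu22, a predicted amino acid permease gene, changed by 1.66 over both times (adjusted p = 0.017) at signals under 0.4.

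Several more meiotic genes, chosen after their values were seen, were called only with culture as a block. meu27 had signals of 0.0578 and 0.0396 at 0 min, 0.359 and 0.0795 at 60 min, and 1.32 and 0.378 at 120 min, a change of 3.88 at 120 min (adjusted p = 0.0568 without the block and 0.000186 with it). rec10, the gene of a component of the linear elements of meiotic chromosomes, had 0.262 and 0.191 at 0 min, 0.946 and 0.265 at 60 min, and 4.64 and 1.05 at 120 min. Its rise came late and was larger in culture 1, and it is among the 20 probe sets called higher at 120 min than at 60 min with the block (log2 difference 2.14). Genes of the dynein-driven movement of meiotic nuclei stood higher at 120 min as well: the dynein heavy chain gene dhc1 by 2.39 (adjusted p = 0.00266 with the block), its cortical anchor num1 by 2.43 (0.000124) and mcp6 by 1.43 (0.00883). The call of mcp6 was lost without the culture 1 array of 0 min or of 120 min, with adjusted p up to 0.111. mcp7, the gene of a partner of Meu13, changed by 1.29 at 120 min (0.00297 with the block).

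By name, 18 probe sets carried a meu symbol, and their list, chosen after values were seen, had a median change of 0.65 over both times, against -0.04 over all probe sets. With the block 6 rose and 0 fell over both times (33.3%, against 5.79% of all probe sets called). At 120 min 10 rose and 0 fell (55.6%, against 10.1% of all probe sets). Of 91 mug probe sets, 10 rose and 3 fell over both times with the block (14.3%), at a median of 0.15, and mug86, which encodes an acetate transporter-like membrane protein, was among those that fell (-1.0, adjusted p = 0.00309 with the block). Of 11 rec probe sets, 2 rose over both times (18.2%) and 3 at 120 min (27.3%) with the block. Among them were rec25 and rec27, whose products join Rec10 in linear elements. Both calls at 120 min were lost without the culture 1 array of 0 min or of 120 min, and that of rec27 without 3 more (adjusted p up to 0.184 for rec25 and 0.432 for rec27). The wtf genes, a family of spore killers, gave 1 rise among 18 probe sets over both times with the block (5.56%, against 5.79% of all). At 120 min they gave 8 rises with the block (44.4%, against 10.1% of all) and 0 without it. wtf5, wtf20 and wtf22 changed by 1.12, 1.07 and 1.12, and each lost its call without the culture 1 array of 0 min (adjusted p up to 0.451 over the 6 arrays left out). The wtf copies are near-identical, so these probe sets may read one another's transcripts and are uncertain as single genes.

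Of the mating pathway genes upstream of these, ste11 had signals of 2.20 and 1.75 at 0 min, 5.10 and 5.96 at 60 min, and 5.64 and 9.74 at 120 min. The 4 later arrays were all above those of 0 min, and most of the change was present at 60 min. The mean change was 1.71 (SE 0.35 without the block, adjusted p = 0.0898, and SE 0.25 with it, adjusted p = 0.0025), so that the rise was called only with the block, where it held without each array in turn. gpa1, the G alpha subunit gene of the pheromone pathway, rose in both fits, with 0.800 and 0.731 at 0 min, 1.20 and 1.21 at 60 min, and 1.92 and 1.99 at 120 min (mean change 1.01, adjusted p = 0.0292 without the block and 0.00201 with it). The cultures gave nearly the same signal at each later time.

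Of 31 mating, pheromone and meiotic entry probe sets, 1 was called without the block and 6 with it over both times (5 rose, 1 fell). With the block that was 19.4%, against 5.79% of all probe sets called, at a list median of 0.30. At 120 min 8 rose and 1 fell with the block (29%). mam2, the receptor of P-factor, had 0.444 and 0.245 at 0 min, 0.999 and 0.460 at 60 min, and 1.97 and 1.01 at 120 min, a mean change of 1.57 (adjusted p = 0.182 without the block and 0.00268 with it). ste4, an adaptor of the pheromone kinase cascade, changed by 1.0 (adjusted p = 0.0271 with the block), and mei4 itself by 0.93 at signals under 0.4 (0.0498). At 120 min spk1, the MAP kinase gene of the cascade, changed by 1.68 (adjusted p = 0.00859 with the block), and mfm3, an M-factor precursor gene, by 1.08 (0.0328). The member that fell was map2, the P-factor precursor gene, whose signal was already low: 0.141 and 0.148 at 0 min, 0.0952 and 0.0797 at 60 min, and 0.0736 and 0.0729 at 120 min (mean change -0.86, adjusted p = 0.037 with the block). At 240 min the signal of map2 was 0.344 and 0.556, above both arrays of 0 min, which this comparison shares with the earlier ones. Over both times the calls of ste4 and mei4 were lost without 5 of the 6 arrays in turn, and that of map2 without any of the 6 (adjusted p up to 0.147, 0.369 and 0.161). At 120 min that of spk1 was lost without the culture 2 array of 120 min and that of mfm3 without any array of 0 or 120 min (adjusted p up to 0.051 and 0.262).

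**Figure D2:**
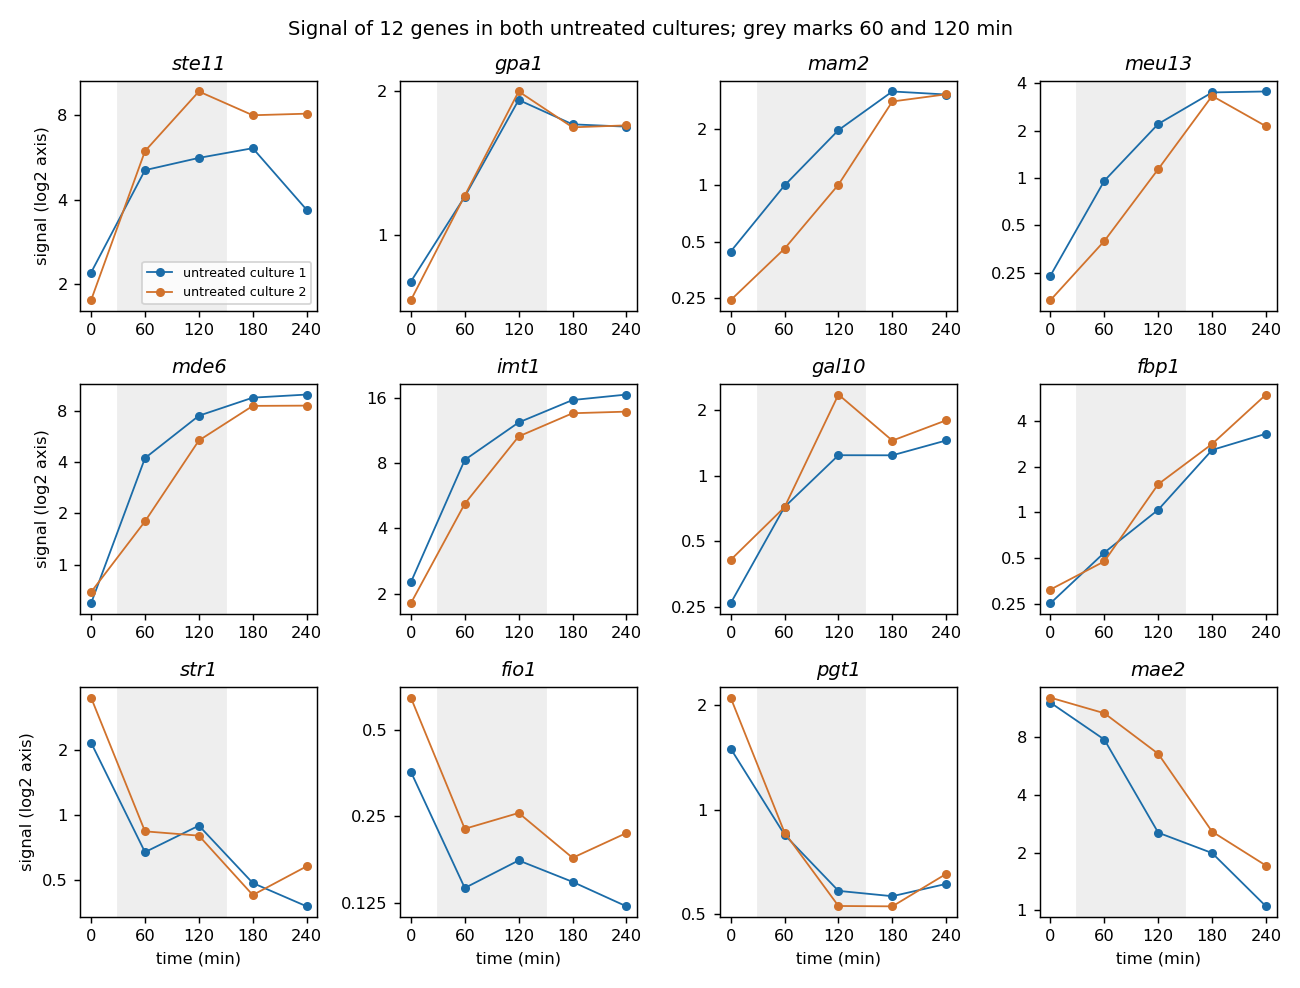
Signal of 12 genes (log2 axis) against time in min in untreated culture 1 (blue) and untreated culture 2 (orange), 1 array per point, with 60 and 120 min shaded. The 8 genes of mating, meiosis, mannosylation and carbon use climb within the shaded span, and str1, fio1 and pgt1 have most of their fall by 60 to 120 min, while mae2 goes on falling to 240 min.

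Among mannosyltransferase genes, imt1 and omh1 rose in both fits. imt1, a mannosyltransferase gene of mannosyl inositolphosphoceramide synthesis, had 2.25 and 1.80 at 0 min, 8.27 and 5.19 at 60 min, and 12.3 and 10.6 at 120 min. The mean change was 2.10 (SE 0.24, adjusted p = 0.0155 without the block and 5.16e-05 with it), and no later array came near those of 0 min. Its paralogue imt3, chosen after its values were seen, changed by 0.76 (adjusted p = 0.461 without the block and 0.0188 with it), a call lost without either array of 0 min or of 60 min (adjusted p up to 0.0968). The third paralogue, imt2, was not called (0.63, adjusted p = 0.63 without the block and 0.2 with it): its signal was 0.121 and 0.320 at 120 min, against 0.117 and 0.0896 at 0 min, a change of 0.06 in culture 1 and 1.84 in culture 2. omh1, an alpha-1,2-mannosyltransferase gene, had 2.56 and 2.82 at 0 min, 8.43 and 6.56 at 60 min, and 13.3 and 9.89 at 120 min (1.78, adjusted p = 0.0319 without the block). In the list of 31 cell wall glucan and mannan probe sets, 3 rose and 1 fell over both times with the block. These were 12.9%, against 5.79% of all probe sets called, and the list median was -0.08. rga5, a GTPase-activating protein gene of Rho1 signalling, changed by 1.18 (adjusted p = 0.00173 with the block), and bgs1, a beta-glucan synthase gene of the septum, by 0.79 (0.0114). eng2, an endo-beta-1,3-glucanase gene, fell by 0.67 (0.0432). The call of bgs1 was lost without the culture 1 array of 0 or 60 min and that of eng2 without 5 of the 6 arrays (adjusted p up to 0.121 and 0.194).

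A pair of calcium signalling genes was among those named by size. prz1, the gene of the transcription factor that calcineurin activates, had 1.31 and 1.53 at 0 min, 4.94 and 5.20 at 60 min, and 4.53 and 9.58 at 120 min. Its change at 60 min, 1.84, was called only with the block (adjusted p = 0.55 without it and 0.00932 with it), and at 120 min culture 2 stood well above culture 1. cmk1, a calmodulin-dependent kinase gene, had 1.29 and 1.16 at 0 min, 3.23 and 3.11 at 60 min, and 3.04 and 3.76 at 120 min, a mean change of 1.42 (adjusted p = 0.0285 without the block and 0.00084 with it). Its rise was present by 60 min in both cultures. Further rises called in both fits were pmp31, a plasma membrane proteolipid gene (1.68, adjusted p = 0.017 without the block), alr2, an alanine racemase gene (1.65, 0.0285), and atg22, of amino acid efflux from the vacuole (1.38, 0.026). Of 17 vacuolar probe sets, 2 rose and 0 fell over both times with the block (11.8%, against 5.79% of all), at a median of 0.13. The rises were those of ypt7, the Rab GTPase gene of vacuole fusion (0.89, adjusted p = 0.0145 with the block), and psp3, a subtilase-type protease gene (0.70, 0.0488). The first call was lost without the culture 1 array of 0 min or either of 60 min, and the second without 5 of the 6 arrays (adjusted p up to 0.156 and 0.289).

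Carbon genes moved in both directions. gal10, the gene of UDP-glucose 4-epimerase and mutarotase, had 0.261 and 0.411 at 0 min, 0.720 and 0.718 at 60 min, and 1.24 and 2.35 at 120 min. Its mean change was 1.76 (adjusted p = 0.0448 without the block and 0.00045 with it), and it stood higher at 120 min than at 60 min (log2 difference 1.25, called with the block). fbp1 had 0.252 and 0.311 at 0 min, 0.544 and 0.476 at 60 min, and 1.04 and 1.54 at 120 min, a 4.52-fold rise at 120 min (adjusted p = 0.0192 without the block and 0.000282 with it). At 60 min its change of 0.86 was not called in either fit. mae2, the malic enzyme gene, had 12.2 and 12.9 at 0 min, 7.80 and 10.7 at 60 min, and 2.54 and 6.57 at 120 min, so that most of its fall came after 60 min and culture 1 led. Its change at 120 min was -1.62 (adjusted p = 0.172 without the block and 0.00343 with it). ght2, a hexose transporter gene, and hxk2, a hexokinase gene, changed by -1.01 (adjusted p = 0.015 with the block) and -0.90 (0.0402) at 120 min, calls that were lost without the culture 1 array of 120 min (adjusted p up to 0.181 and 0.439).

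gpa2, the G alpha subunit gene of glucose sensing, fell in both fits, with 1.19 and 1.43 at 0 min, 0.762 and 0.816 at 60 min, and 0.582 and 0.552 at 120 min (mean change -0.97, adjusted p = 0.0448 without the block). Among 19 hexose transport and glucose-repressed probe sets, 1 rose and 2 fell over both times with the block (15.8%, against 5.79% of all). At 120 min 1 rose and 5 fell (31.6%, against 10.1% of all probe sets). The list median over both times was -0.36. With the block, 0 of 15 glycolysis probe sets were called over both times and 1 fell at 120 min. Of 42 respiratory chain probe sets 0 were called over both times and 1 rose at 120 min. For the respiratory list the cultures parted: culture 1 had a median change of -0.57 at 120 min and culture 2 of 0.27. Of other galactose genes, chosen after their values were seen, 1 fell and 1 rose: gal1, of galactokinase, changed by -1.18 at 120 min (adjusted p = 0.0281 with the block), and mel1, of alpha-galactosidase, by 1.75 (0.0107) at signals under 0.4. Each of these 2 calls was lost without the culture 1 array of 0 or 120 min (adjusted p up to 0.339 and 0.13). A further galactose gene, gal7, was not called at 120 min (-0.28, adjusted p = 0.657 without the block and 0.356 with it).

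The largest fall called without the block for a gene with 1 symbol was that of str1, a siderophore-iron transporter gene. It had 2.17 and 3.51 at 0 min, 0.675 and 0.842 at 60 min, and 0.895 and 0.804 at 120 min. The fall was present by 60 min, with no overlap between the later arrays and those of 0 min. The mean change was -1.79 (SE 0.26, adjusted p = 0.0278 without the block and 0.0006 with it). fio1, the ferroxidase gene, and fip1, its permease partner, fell by 1.30 and 0.98 over both times with the block (adjusted p = 0.000926 and 0.025), and at 60 min by 1.43 and 1.26 (0.00465 and 0.0382). Without the block they were not called (adjusted p = 0.232 and 0.41 over both times). The call of fip1 over both times was lost without any 1 of the 3 arrays of culture 1 (adjusted p up to 0.254).

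Of 14 iron uptake and siderophore probe sets, 0 rose and 4 fell over both times with the block (28.6%, against 5.79% of all probe sets called). At 120 min 3 rose and 3 fell (42.9%, against 10.1% of all). The list median over both times was -0.13. The fourth fall was that of fep1, the GATA-type repressor of these genes (-0.78, adjusted p = 0.0301 with the block). The rises at 120 min, chosen after their values were seen, were sib1 and sib2, of ferrichrome synthesis (0.93 and 1.11, adjusted p = 0.0305 and 0.0311 with the block), and frp1, the ferric reductase gene (1.05, 0.0325). At 120 min all 3 rises were lost without 1 or another array of 0 or 120 min (adjusted p up to 0.292), and over both times that of fep1 was lost without 5 of the 6 arrays (adjusted p up to 0.171). The list also holds nhe1, a sodium antiporter gene that shares the old name sod2. In the peroxide series, before peroxide, str1 stood at 7.96 and 6.74, above both untreated cultures at 0 min, so the level at 0 min differed among cultures of this strain.

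Beside iron, pgt1, a glutathione transporter gene, fell in both fits. It had 1.5 and 2.10 at 0 min, 0.846 and 0.858 at 60 min, and 0.583 and 0.528 at 120 min (mean change -1.37, adjusted p = 0.0218 without the block and 0.000778 with it). nup85, a nucleoporin gene, had 0.610 and 0.596 at 0 min, 0.402 and 0.351 at 60 min, and 0.193 and 0.236 at 120 min (-1.09, adjusted p = 0.0309 without the block). Both genes went on falling between 60 and 120 min in each culture. zym1, the metallothionein gene, stood in contrast at 3.99 and 6.32 at 120 min, against 2.17 and 1.59 at 0 min, a change of 1.44 (adjusted p = 0.0813 without the block and 0.00512 with it).

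Amino acid and purine synthesis genes lay more often below than above their 0 min levels, and few passed the test. Of 59 amino acid and sulfur synthesis probe sets, which include the purine ade genes, 35 had all 4 later arrays below both arrays of 0 min, against 14.4% of all probe sets, and 0 had all 4 above, against 6.62%. With the block 0 rose and 2 fell over both times (3.39%, against 5.79% of all probe sets called), and 0 rose and 11 fell at 120 min (18.6%, against 10.1%), at a list median of -0.44 over both times. Without the block limma called 0 over both times, where 12 had an unadjusted p under 0.05, against 485 of all 4972 probe sets. At 120 min it called 0, where 21 had such a p, against 615 of all 4972. ade2, of purine synthesis, changed by -0.03 over both times. cys2, of cysteine synthesis, had 1.28 and 2.08 at 0 min, 0.690 and 1.11 at 60 min, and 0.458 and 0.724 at 120 min (-1.20, adjusted p = 0.2 without the block and 0.00586 with it). sua1, the sulfate adenylyltransferase gene, had 17.2 and 14.3 at 0 min, 12.1 and 12.5 at 60 min, and 4.65 and 7.65 at 120 min. Its change at 120 min was -1.39 (adjusted p = 0.00609 with the block), and the fall lay mainly between 60 and 120 min.

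Among members chosen after their values were seen, arg4, lys1 and his4, of arginine, lysine and histidine synthesis, changed by -1.12, -0.81 and -0.74 at 120 min (adjusted p = 0.0245, 0.0239 and 0.0213 with the block). ade3, ade5, ade6 and ade7, of purine synthesis, changed by -0.77, -0.85, -0.82 and -0.83 (0.0359, 0.0115, 0.0361 and 0.0187). All 7 of these calls, and that of sua1, were lost without the culture 1 array of 0 min or that of 120 min (adjusted p up to 0.379). The cultures differed in size here, the list median at 120 min being -0.86 in culture 1 and -0.34 in culture 2. Of 23 amino acid permease and nitrogen use probe sets, 2 rose and 0 fell over both times with the block (8.7%, against 5.79% of all). The list median was -0.39, and the rises were those of meu22, given above, and isp5, a starvation-induced permease gene (1.10, adjusted p = 0.0135). The isp5 call was lost without the culture 1 array of 0 or 60 min (adjusted p up to 0.161).

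Starvation genes as a group did not move one way. Of 30 starvation-induced and sporulation probe sets, 3 rose and 2 fell over both times with the block (16.7%, against 5.79% of all), at a median of 0.02. At 120 min 5 rose and 2 fell with the block (23.3%, against 10.1% of all), and 1 rose and 0 fell without it. Changes over both times ran from -1.01 to 2.30, so the largest rise exceeded the falls in size. isp4, an oligopeptide transporter gene, and isp7, of an oxygenase-like protein, fell by 0.95 and 1.01 (adjusted p = 0.00823 and 0.00702 with the block). isp7 had 1.06 and 0.845 at 0 min, 0.940 and 0.444 at 60 min, and 0.474 and 0.242 at 120 min. The first call was lost without either array of 0 min and the second without the culture 2 array of 0 min (adjusted p up to 0.067 and 0.0681).

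**Figure D3:**
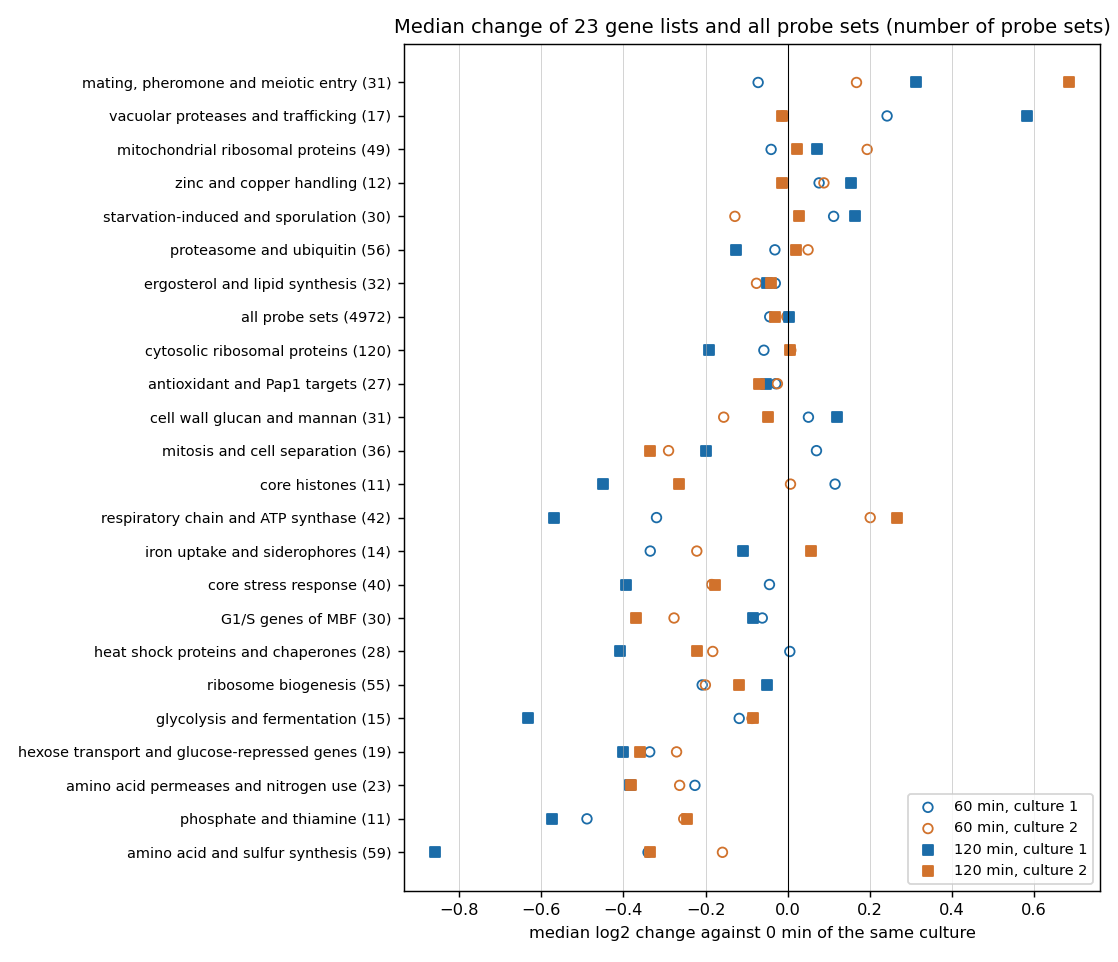
Median log2 change of the 23 gene lists of the naming rule, and of all probe sets, against 0 min of the same culture, with the number of probe sets in brackets: open circles 60 min, filled squares 120 min, blue culture 1, orange culture 2. Of these 23 lists, mating, pheromone and meiotic entry genes have the highest median over both times (0.30) and amino acid and sulfur synthesis genes the lowest (-0.44), while all probe sets lie near 0. At 60 min the median of the mating list is -0.07 in culture 1 and 0.17 in culture 2. The 7 lists chosen after values were seen are not drawn.

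The genes that mark a peroxide response moved in both directions here. Of 40 core stress probe sets, 3 rose and 3 fell over both times with the block (15%, against 5.79% of all probe sets called). At 120 min 4 rose and 6 fell (25%, against 10.1% of all). The list median over both times was -0.16. ctt1, the catalase gene, chosen after its values were seen, stood at 0.469 and 0.842 at 120 min, against 0.910 and 2.05 at 0 min (-1.12, adjusted p = 0.0281 with the block). srk1, a Sty1-bound kinase gene, and gpd1, a glycerol-3-phosphate dehydrogenase gene, also chosen after their values were seen, changed by -0.92 and -1.05 (0.0342 and 0.0366). hsp9, a small stress protein gene, stood in contrast at 23.2 and 22.8 at 120 min, against 6.38 and 11.5 at 0 min (1.42, adjusted p = 0.00531 with the block). dak2, a dihydroxyacetone kinase gene, changed by 1.15 at 120 min (0.00526). All 5 of these calls at 120 min were lost without the culture 1 array of that time (adjusted p up to 0.436 over the 6 arrays left out). Of 27 antioxidant and Pap1 target probe sets, 1 rose and 0 fell over both times with the block (3.7%, against 5.79% of all), at a median of -0.08. The rise was that of pmd1, a multidrug exporter gene (0.85, adjusted p = 0.0407 with the block). That call was lost without 4 of the 6 arrays (adjusted p up to 0.351).

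Few genes of ribosomes, lipid synthesis and core histones passed the test. With the block over both times, 0 of 120 cytosolic ribosomal protein probe sets, 0 of 55 of ribosome biogenesis, 0 of 49 mitochondrial ribosomal protein, 0 of 32 of ergosterol and lipid synthesis and 0 of 11 core histone probe sets were called, against 5.79% of all. Their median changes were -0.06, -0.18, 0.09, -0.03 and -0.10. At 120 min with the block, 2 cytosolic ribosomal protein probe sets (1.67%) and 1 core histone probe set (9.09%) fell. In the other lists 0 were called, against 10.1% of all. The core histone median was 0.07 at 60 min and -0.38 at 120 min. In proliferation genes, 1 rose and 1 fell of 36 mitosis and cell separation probe sets over both times (5.56%, against 5.79% of all). These were mbx1, a MADS-box factor gene of cell separation (1.18, adjusted p = 0.0101 with the block), and ams2, a GATA factor gene of histone transcription (-1.0, 0.00685). Either call was lost without the culture 2 array of 0 min (adjusted p up to 0.08 and 0.0659). At 120 min 1 rose and 4 fell of this list with the block (13.9%, against 10.1% of all). Of 30 probe sets of the G1/S transcription factor MBF, 0 were called over both times with the block. At 120 min 1 of them rose and 2 fell (10%, against 10.1% of all). At that time cdc13, the mitotic cyclin gene, and cdc22 and nrm1, a ribonucleotide reductase gene and a corepressor gene of MBF, changed by -1.0, -1.13 and -0.95 (adjusted p = 0.0197, 0.0168 and 0.0134 with the block). These 3, chosen after their values were seen, were lost without the culture 1 array of 120 min (adjusted p up to 0.211).

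The largest called change of any probe set belonged to 1 with no symbol in the annotation used here, 1779357_at. It had 0.176 and 0.156 at 0 min, 7.02 and 2.86 at 60 min, and 9.73 and 5.21 at 120 min, a mean change of 5.10 (SE 0.43, adjusted p = 0.00952 without the block and 6.53e-07 with it). It was the probe set called at 60 min without the block (adjusted p = 0.0481). Of the 37 probe sets called over both times without the block, 16 had 1 symbol, and the others are not named here.

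The cultures were also sampled at 180 and 240 min, in comparisons that share the arrays of 0 min. Counts of calls without the block were 348 at 180 min (7%) and 671 at 240 min (13.5%). At 240 min the change was 3.85 for mde6, 2.91 for imt1, 3.21 for mam2, 3.99 for fbp1, -2.56 for str1 and -3.23 for mae2. ste11 stood at 3.68 in culture 1 and 8.11 in culture 2 at 240 min, so the cultures differed more at that time than at 60 min. Other changes were smaller at 240 min than at 120 min: that of frp1 was -0.08 and that of rec27 was 0.49.

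The peroxide cultures were sampled at the same 2 times, which sets the untreated changes beside those of cultures of equal time. The difference of changes, peroxide minus untreated, was fitted over all 32 arrays. At 60 min 2 probe sets were called without the block (0.0402%) and 14 with it (0.282%), and at 120 min 13 (6 higher, 7 lower, 0.261%) and 85 (27 higher, 58 lower, 1.71%). At 120 min mde6 changed by 0.07 and -0.30 in the peroxide cultures, against 3.65 and 2.95 in the untreated cultures, a difference of -3.42 (SE 0.55, adjusted p = 0.00911 without the block). imt1 changed by -0.43 and 0.15 in the peroxide cultures, against 2.45 and 2.56 in the untreated cultures (difference -2.65, SE 0.41, adjusted p = 0.00879). Both genes thus stayed near their 0 min level with peroxide while they rose without it.

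The same direction was called for meu17 (-2.96, adjusted p = 0.0302) and for mst2 (-2.75, 0.0474), a histone acetyltransferase gene chosen after its values were seen. mst2 had 1.77 and 1.11 at 0 min, 6.45 and 3.13 at 60 min, and 10.9 and 6.91 at 120 min in untreated cultures. The opposite direction was called for ams2, which changed by 0.86 and 0.66 in the peroxide cultures, against -1.11 and -1.41 in the untreated cultures (difference 2.02, adjusted p = 0.0168), and for his4 (1.62, 0.0474). The calls of this difference without the block for mde6, imt1, meu17 and mst2 were all lost without the 0 min array of peroxide culture 1. Those for ams2 and his4 did not both hold without that array. With culture as a block the difference was also called for ste11 (-2.52, adjusted p = 0.0493), prz1 (-2.50, 0.00555), meu27 (-3.72, 0.0219), rec10 (-3.26, 0.00977), mae2 (2.12, 0.00115), nup85 (1.87, 0.0213) and cys2 (1.84, 0.0334).

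Other movers did not differ detectably between the series. gal10 changed by 1.44 and 3.85 in the peroxide cultures, against 2.25 and 2.52 in the untreated cultures (difference 0.26, SE 1.42, adjusted p = 0.969). fio1 changed by -1.70 and -1.70 in the peroxide cultures, against -1.02 and -1.33 in the untreated cultures (difference -0.52, SE 0.82, adjusted p = 0.896). These falls began at unlike levels: at 0 min fio1 stood at 2.18 and 2.81 in the peroxide series, against 0.358 and 0.648 in the untreated cultures. str1 gave a difference of 0.74 (SE 1.03, adjusted p = 0.877). These standard errors leave room for differences as large as the changes themselves.

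**Figure D4:**
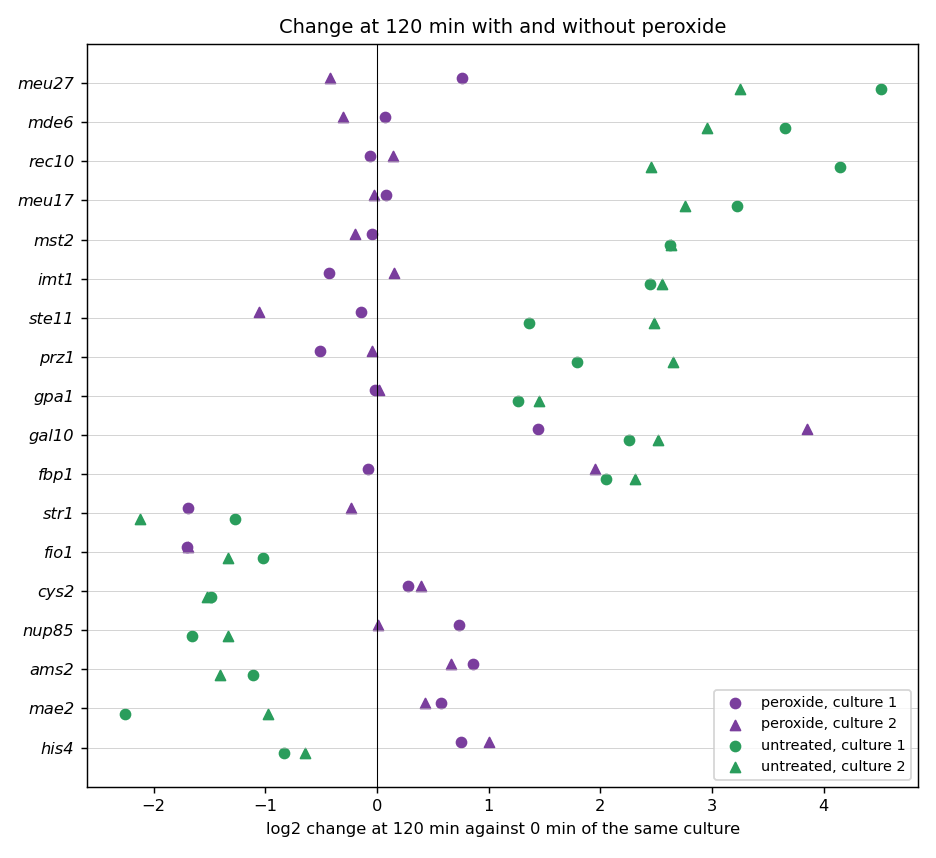
Log2 change at 120 min against 0 min of the same culture for 18 genes, peroxide cultures in purple and untreated cultures in green, with a circle for culture 1 and a triangle for culture 2. The meiotic genes and imt1 lie between -0.43 and 0.76 with peroxide and above 2 without it, gal10 and fio1 overlap or lie close, and cys2, nup85, ams2, mae2 and his4 lie at or above 0 with peroxide and below 0 without it.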

How the data were processed

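Total RNA was isolated with hot phenol, labelled by in vitro transcription and hybridised to single-colour arrays, per the labels' protocols. The value table that the authors deposited holds a linear signal per probe set, from 0.0029 to 64.6. The background correction, summary and scaling behind it are not given in the sources used here. All columns were mapped to samples by title. Signals were log2-transformed with no pseudocount and no further normalization, and all 4972 probe sets were tested in limma 3.58.1 (R 4.3.3; lmFit, eBayes). The fit of the 10 untreated arrays had 5 residual and 3.14 prior degrees of freedom, and with culture as a block 4 and 6.68. The mean of 60 and 120 min uses 2 arrays of each culture, which the fit without the block treats as separate. The fit with the block does so too, after a constant difference between the cultures is removed. Deviations between the cultures correlated with r = 0.869 between 60 and 120 min, against 0.512 and 0.551 with 0 min. The block therefore need not remove all dependence between these arrays. Averaging both times per culture was fitted only without the block. Each culture number marks 1 batch culture followed in time, per the labels' protocols, so the numbers pair arrays, and deviations between the cultures correlated above 0.1 in 10 of 10 pairs of times (lowest r 0.362). Between peroxide and untreated cultures equal numbers carry no pairing. The p-values without the block rest on the spread between the 2 cultures of a series at the same time. Those with the block rest on what is left of that spread after a constant difference between the cultures is removed.

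Symbols came from the platform annotation (1 symbol for 2903 probe sets, several for 16, none for 2053). By gene ID 2900 matched RefSeq (ASM294v3), which updated 113. A fixed rule named the genes with 1 symbol and 1 sign in all 4 changes: the 12 highest and 12 lowest changes over both times and the 4 highest and 4 lowest at each time, filled up by those called with the block. From each of 23 gene lists it took up to 4 called members by size. The members and lists were chosen with earlier results of these data known, 7 lists and 43 genes after values were seen here. Alternatives were normalization, leaving out the lowest 25% of signals, a pseudocount of 0.1, the arrays fitted, and each array left out.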

Additional observations from a re-analysis of the deposited data

Results flagged for a closer look

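Among the genes named in the report, 6 changed differently in peroxide and untreated cultures at 120 min, by the test of the difference itself in limma over 32 arrays without the block. The difference, peroxide minus untreated, was -3.42 for mde6 (adjusted p = 0.00911), -2.65 for imt1 (0.00879), -2.96 for meu17 (0.0302) and -2.75 for mst2 (0.0474). These 4 transcripts rose without peroxide and stayed within 0.43 of their 0 min level (log2) in both peroxide cultures. For ams2 and his4 the difference was 2.02 (0.0168) and 1.62 (0.0474). ams2 changed by 0.86 and 0.66 in peroxide cultures, against -1.11 and -1.41 in untreated cultures, and his4 by 0.75 and 1.0 in peroxide cultures, against -0.83 and -0.65 in untreated cultures. mst2 and his4 were chosen after their values were seen. With culture as a block all 6 differences were called, with adjusted p from 6.04e-05 to 0.0105. Without the 0 min array of peroxide culture 1, the calls without the block of mde6, imt1, meu17 and mst2 were all lost. Those of ams2 and his4 did not both hold without that array. These calls thus rest on single arrays.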

How the results depend on the processing

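The counts depend on the fit. With culture as a replicate block, the pairing moved them to 75 at 60 min, 503 at 120 min, 288 over both times, 25 between 120 and 60 min, and 14 and 85 for the difference of changes at 60 and 120 min. At 60 min the count was 2 with all 32 arrays and 0 with 6 arrays, without the lowest 25% of signals, with a pseudocount of 0.1, or with symbols only. At 120 min it was 0 with 6 arrays, 36 without the lowest 25% and 28 with symbols only, and over both times 1, 23 and 14, and 8 with the times averaged per culture. Between 120 and 60 min it was 1 with 32 arrays. The difference at 60 min was 131 with the arrays of 2 times, and at 120 min 5, and 22 after quantile normalization. Of the calls at 120 min in that difference 46.2% were higher, against 31.8% after quantile normalization and 25% after centring on medians.

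Leaving out 1 array without the block gave 0 to 1 at 60 min, 0 to 47 at 120 min, 0 to 39 over both times, 0 between the times, and 1 to 3 and 1 to 19 for the differences. Leaving out 1 untreated culture among 32 arrays gave 0 at 60 min, 4 to 12 at 120 min and 0 to 10 over both times. Settings joined to the block were chosen after seeing the data. With it, quantile normalization, centring, the filter, 6 arrays and 32 arrays gave 52, 83, 57, 88 and 21 at 60 min, 428, 504, 301, 474 and 158 at 120 min, 229, 295, 185, 302 and 96 over both times, and 16, 25, 9, 42 and 14 between the times. Leaving out 1 array with the block gave 3 to 74, 191 to 606, 156 to 340 and 0 to 55. The cause was not tested.

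Of 91 genes named or listed as called at 120 min with the block, 45 kept the call without each of the 6 arrays, and 41 lost it without the culture 1 array of 120 min. Among named genes 1 value turned its direction, an uncalled one: erg31, of ergosterol synthesis, at -0.071 without the culture 2 array of 0 min, against 0.67 with all arrays and up to 1.41 without 1 array. Of 28 genes named by size of change, 13 lay in the lowest 25% of signals (below 0.841), where the unknown floor limits a fold.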
